A study of Homo sapiens with 10 samples.

Results

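Genome occupancy was examined at 8 loci of the insulin-like growth factor (IGF) pathway, covered by the genes IGF1, IGF2, IGF1R, INSR, IGF2R, IRS1, IRS2 and IGFBP5. The loci were taken as fixed windows on the hg19 build, and every deposited peak that overlapped a window by 1 bp or more was a member. The windows spanned 1.945 Mb in all and held 25 of the 26482 peaks of the series. When the peaks of all 8 lists were merged, the windows held 10 of 10581 sites. The assay was ChIP-seq, in which DNA bound by a protein is pulled down with an antibody and sequenced, and the cells were of the established neuroblastoma line SK-N-SH. An antibody against MAML3 or against the retinoic acid receptor RARα was used, in cells given 1 µM retinoic acid (RA) or in vehicle-treated cells (untreated, UT). The labels give each of these 4 groups 2 samples with 1 peak list each, and all cells had spent the 24 hours before treatment in charcoal-stripped serum. The labels call the cells control SK-N-SH cells, and no label gives the duration of the RA treatment. Nothing in the labels ties the replicates to separate cultures, and p-values then measure the spread between these libraries, which may be technical. From their names, the lists UT 1 and UT 2 of MAML3 could even be 1 library sequenced on 2 lanes, which would leave that group without a replicate.

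IGF1 and IGF2 are secreted ligands that activate the receptor tyrosine kinase IGF1R, and the closely related insulin receptor INSR binds insulin and, in one of its isoforms, IGF2. IGF2R is a membrane receptor that carries IGF2 to lysosomes and does not signal as a kinase. IRS1 and IRS2 are adaptor proteins that pass the signal of the activated receptors to phosphoinositide 3-kinase and AKT, and IGFBP5 is a secreted protein that binds IGFs. IGF signalling is a known growth and survival pathway of neuroblastoma cells. MAML3 is a mastermind-like coactivator without a DNA-binding domain of its own, known from Notch signalling. RARα is one of the nuclear receptors through which RA acts at response elements in DNA.

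The windows, on hg19, were 12:102.74 to 102.92 Mb for IGF1, 11:2.1 to 2.175 Mb for IGF2, 15:99.1 to 99.56 Mb for IGF1R and 19:7.06 to 7.34 Mb for INSR. Those of the remaining genes were 6:160.34 to 160.58 Mb for IGF2R, 2:227.5 to 227.76 Mb for IRS1, 13:110.31 to 110.54 Mb for IRS2 and 2:217.44 to 217.66 Mb for IGFBP5. The gene table at hand was on GRCh38, so it gave gene names and order but no positions. Peaks were therefore not placed in exons, introns or promoters, and a peak in a window is not shown to act on the gene the window is named after. In the order of genes, IGFBP2 is the next protein-coding gene before IGFBP5, and INS-IGF2 and INS come next after IGF2.

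MAML3 peaks were listed at 4 of the 8 loci, and RARα peaks at 2 of those. At IRS1, each MAML3 site was on 1 list only. The windows of IGF1R, IRS1, IRS2 and IGFBP5 held all 23 MAML3 peaks and both RARα peaks. The windows of the ligands IGF1 and IGF2 and of the receptors INSR and IGF2R held 0 peaks in each of the 8 lists. These windows are 180, 75, 280 and 240 kb long, beside 460 kb for IGF1R. Over the listed range of all chromosomes, the densest lists held 2.57 (MAML3 RA 1) and 0.45 (RARα UT 1) peaks per Mb. At such densities short windows can be empty, so no difference between ligands, receptors and adaptors is read from the zeros, which were not tested. One MAML3 site at each of IGF1R, IRS2 and IGFBP5 was on all 4 MAML3 lists, with and without RA. Of the 10 MAML3 sites, 0 were gained with RA (on both RA lists and neither UT list) and 0 were lost (the reverse), beside 9.37% gained and 0.683% lost over all MAML3 sites, and leaving out 1 library moved these counts to as many as 3 and 2. The RARα peaks at IGF1R and IRS2 were listed in 1 of the 2 RA libraries.

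**Figure D1:**
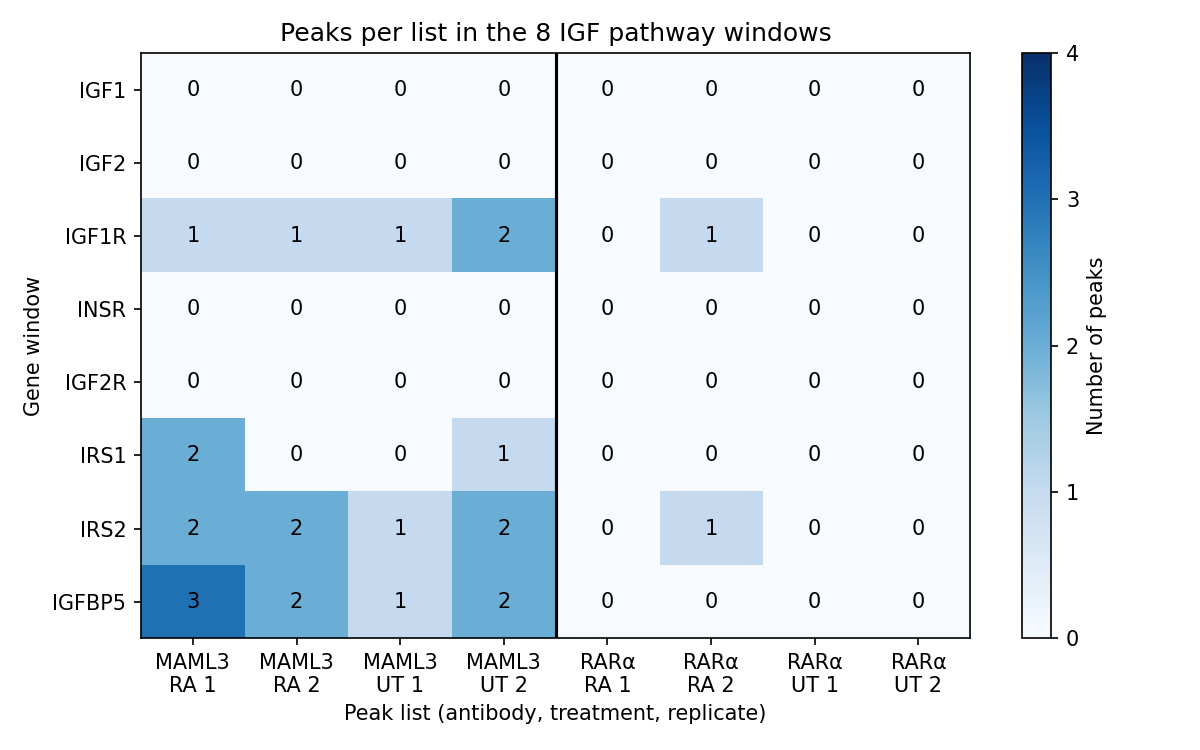
Number of peaks per list (columns: antibody, treatment and replicate) in each gene window (rows), printed in the cell and shown by colour. MAML3 peaks stand in the rows of IGF1R, IRS1, IRS2 and IGFBP5, with IRS1 at 0 in RA 2 and UT 1. The RARα columns hold 2 peaks, and the rows of IGF1, IGF2, INSR and IGF2R are at 0.

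Among the receptors, IGF1R carried the MAML3 site on chromosome 15 at 99279074 to 99279621. MAML3 RA 1 listed it with a score at the 88.8 percentile of its list and RA 2 at the 65.6 percentile. UT 1 had it at the 81.4 percentile and UT 2 at the 85.9 percentile. Counted from the top of each list, the site was peak 842 of 7532 in RA 1 and 2142 of 6230 in RA 2, against 414 of 2222 in UT 1 and 952 of 6759 in UT 2. Scores are the authors' own value per peak and place a peak within its list, and the lists differ in length, so no order between treatments is read from them. A second MAML3 peak, at 99232909 to 99233096, lay 46.0 kb away and was listed in UT 2 alone, at the 15.1 percentile. RARα RA 2 listed a peak at 99279209 to 99279476, inside the MAML3 site, and RARα RA 1 and both RARα UT lists listed none in the window.

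IRS2, the adaptor, carried the highest-ranked site of the 8 loci, on chromosome 13 at 110320051 to 110320597. Its MAML3 peaks stood at the 93.0 and 83.9 percentiles in RA 1 and RA 2, against 85.9 and 90.6 in UT 1 and UT 2. It was peak 525 in RA 1 and 1002 in RA 2, against 314 in UT 1 and 637 in UT 2. By mean percentile, 88.4, it ranked 381 among the 1724 sites that all 4 MAML3 lists held in the genome, where the IGF1R site ranked 671 and the IGFBP5 site 804. The median mean percentile of those 1724 sites was 74.4. A second MAML3 site at 110309751 to 110310150 lay 9.9 kb from the first and was on 3 lists, at percentiles 37.7 in RA 1, 27.6 in RA 2 and 47.7 in UT 2. This second site crossed the edge of the window, and the midpoints of its 3 peaks fell outside. RARα RA 2 had a peak of 150 bp at 110320205 to 110320354, within the first site, and the other RARα lists had none in the window.

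At IGFBP5, the binding protein, 3 MAML3 sites lay within 1 stretch of chromosome 2. The site at 217564719 to 217565318 was on all 4 lists, at percentiles 76.3 and 67.2 in RA 1 and RA 2, against 79.0 and 81.4 in UT 1 and UT 2. It was peak 1789 in RA 1 and 2044 in RA 2, against 468 in UT 1 and 1255 in UT 2. The next site, 34.6 kb on at 217599904 to 217600281, was at the 49.9 and 47.5 percentiles in RA 1 and RA 2, against 76.7 in UT 2, and UT 1 did not list it. Another, at 217617819 to 217618118, was listed in RA 1 alone, at the 33.0 percentile. RARα was listed at none of the 3, and the nearest RARα peak of any list was 498 kb from the first.

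IRS1, the other adaptor, had MAML3 peaks that no second library repeated. RA 1 listed peaks at 227690669 to 227691018 and 227720569 to 227720868 on chromosome 2, at the 35.7 and 16.7 percentiles. UT 2 listed another at 227637470 to 227637603, at the 1.02 percentile, with a score of 71.1 where the lowest of its list was 70. RA 2, UT 1 and the 4 RARα lists held 0 peaks in this window. In RA 2, 1 number is missing from the peak names over the 1595 kb between the peaks that flank the window.

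**Figure D2:**
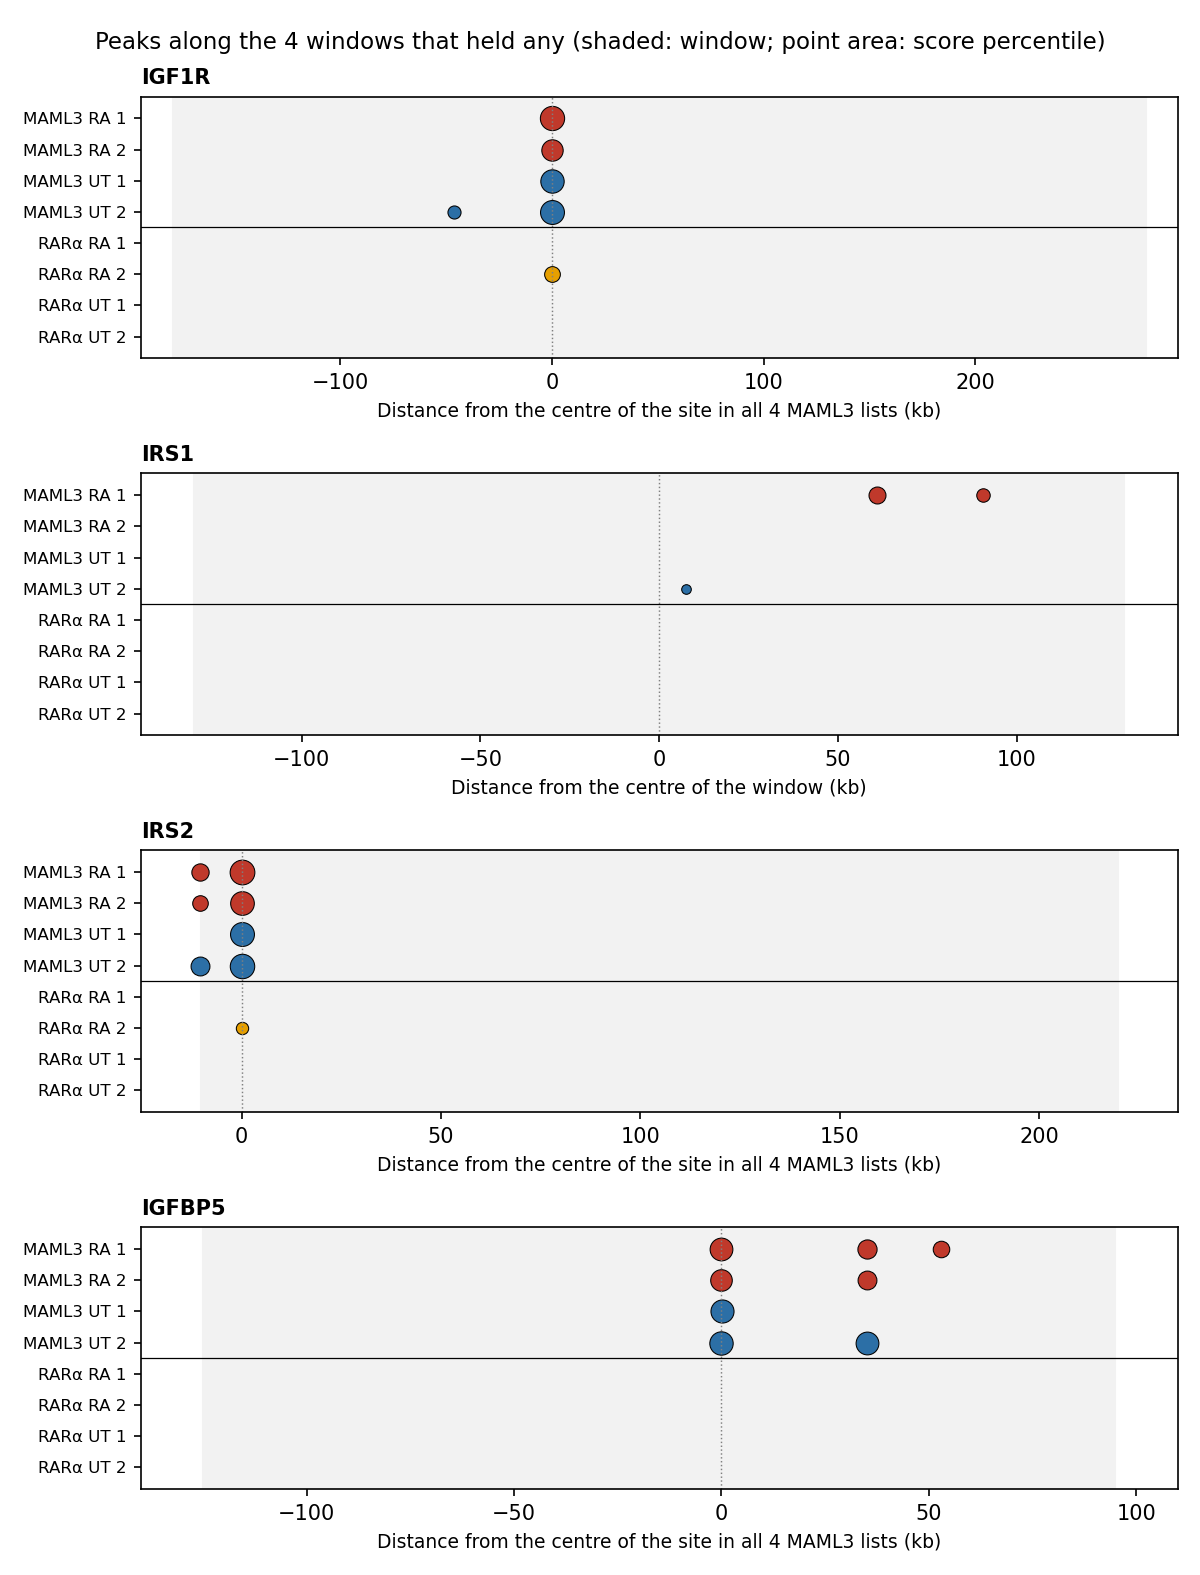
Peak midpoints along the 4 windows that held any peak. The x axis gives the distance in kb from the centre of the site on all 4 MAML3 lists, or from the window's centre for IRS1, the shading marks the window, rows are lists and the point area grows with the score percentile. IGF1R, IRS2 and IGFBP5 each show 1 column of 4 MAML3 points at 0, with a RARα RA 2 point under it at IGF1R and IRS2, whereas the 3 points at IRS1 stand at different places.

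Of the 10 MAML3 sites in the windows, 3 were on all 4 lists, 2 on 3 lists, 0 on 2 lists and 5 on 1 list. Over the genome, 16.8% of the 10251 MAML3 sites were on all 4 lists, 23.5% on 3, 22.4% on 2 and 37.2% on 1. Gained and lost sites are among those on 2 lists. Both sites on 3 lists, at IRS2 and IGFBP5, were missing from UT 1, which with 2222 peaks was the shortest MAML3 list. This pattern was shared by 2242 of the 2414 sites of the genome that were on 3 lists. The sites on 1 list stood low, between the 1.02 and 35.7 percentiles, and the median over all such sites of the genome was 19.9. The sites in the windows lay a median of 29.6 kb from the nearest other MAML3 site, against 25.3 kb over all MAML3 sites.

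**Figure D3:**
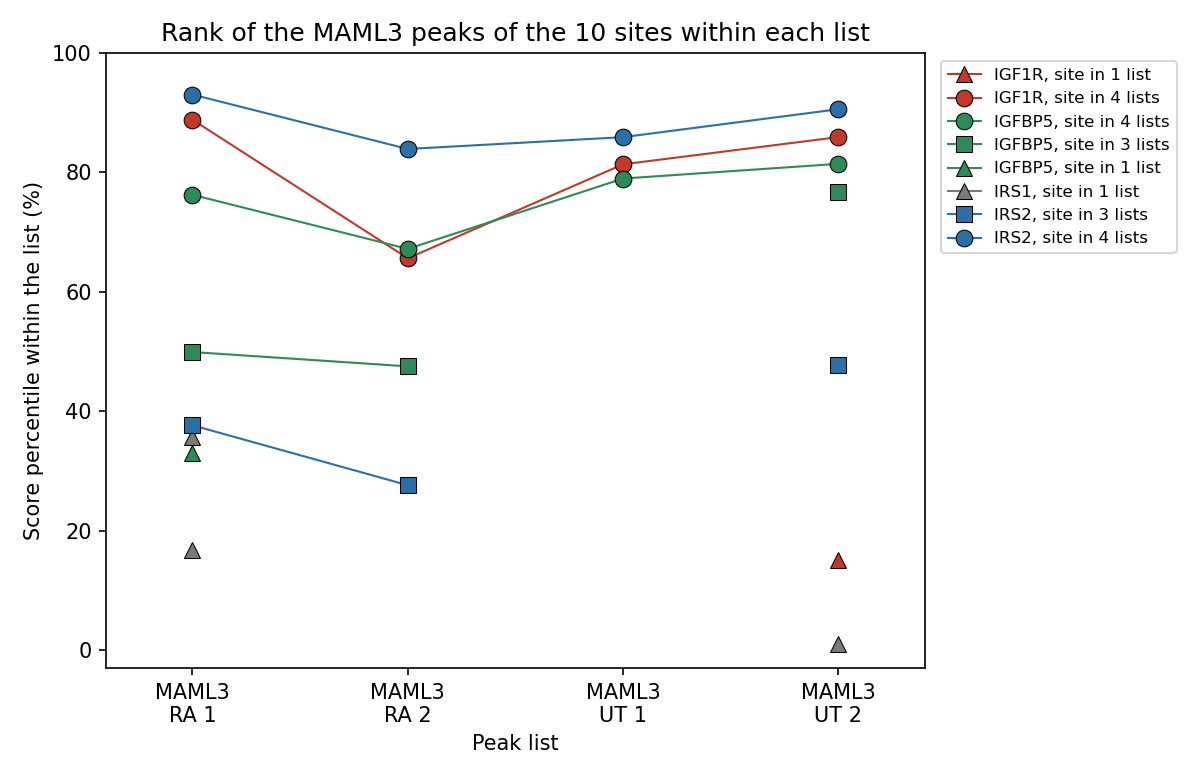
Score percentile within its list (y axis, %) of each peak of the 10 MAML3 sites, for the 4 MAML3 lists (x axis). Lines join the peaks of 1 site on neighbouring lists and break where a list does not hold it, colours are windows and symbols the number of lists. The 3 sites on all 4 lists stay between 65.6 and 93.0, above the sites on 1 list, which reach at most 35.7.

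The comparison of treatments asked whether RA changed occupancy at these loci. Sites on both RA lists of an antibody and on neither of its UT lists counted as gained, and sites on both UT lists and neither RA list as lost. For MAML3 this gave the counts of 0 above. For RARα, 0 of the 2 sites were gained and 0 were lost, beside 5.42 and 0.472% over all RARα sites, and 0 were on all 4 RARα lists, beside 6.75%. With so few sites, a count of 0 is not told apart from these background shares. Without MAML3 RA 2, 3 sites on RA 1 alone counted as gained, 2 of them at IRS1 and 1 at IGFBP5. Without UT 2, the 2 sites on 3 lists counted as gained. Without UT 1, the single peaks of UT 2 at IGF1R and IRS1 counted as lost.

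The number of MAML3 peaks in the windows was 8 and 5 in the RA lists, against 3 and 7 in the UT lists. The whole lists held 7532 and 6230 peaks with RA and 2222 and 6759 without it. As a share of the list, the windows had 0.106% in RA 1 (95% Wilson interval 0.0538 to 0.209) and 0.0803% in RA 2 (0.0343 to 0.188). The shares were 0.135% in UT 1 (0.0459 to 0.396) and 0.104% in UT 2 (0.0502 to 0.214). These intervals cover counting error only, and all 4 overlapped. The mean share was 0.0932 ± 0.0184% with RA and 0.119 ± 0.0222% without it (SD, n = 2 each), a difference of -0.0261 percentage points that the two-sided exact permutation test did not separate from the spread between libraries (p = 0.667, where 0.333 is the smallest p that 2 against 2 can give). This test and the UT SD count UT 1 and UT 2 as separate libraries. With the peaks of both pooled but not merged, so that shared peaks counted more than once, the difference was -0.0181 percentage points. The share of a merged UT list was not computed. In the upper 50% of each list by score it was -0.106 percentage points (exact permutation p = 0.333). Per Mb, the windows held 4.11 and 2.57 MAML3 peaks in RA 1 and RA 2 and 1.54 and 3.6 in UT 1 and UT 2. Over the listed range of all chromosomes the values were 2.57 and 2.12 with RA and 0.757 and 2.3 without it. Counted by overlap, the density was higher in the windows in each of the 4 lists, which rests on 3 to 8 peaks per list and was not tested. Only 4 of the 5 RA 2 peaks had their midpoint in the windows, and counted by midpoint the density of RA 2 was not higher there.

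RARα peaks in the windows numbered 0 and 2 in the RA lists, against 0 and 0 in the UT lists. The RA lists held 1103 and 1064 RARα peaks in all, and the UT lists 1321 and 251. The mean share of the list was 0.094 ± 0.133% with RA and 0% without it (SD, n = 2 each). The two-sided exact permutation test gave p = 1. Both peaks came from RA 2, so without that library the difference was 0. The peak at IGF1R had a score of 88.0 and stood at the 28.5 percentile, and the one at IRS2 had 75.6 and stood at the 11.6 percentile, where the lowest score of that list was 70.1. A list holds peaks above a minimum score, so a locus that is not listed is not shown to be unbound.

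At each of the 2 loci with both factors, the RARα peak lay wholly inside the MAML3 peak of all 4 MAML3 lists. At IGF1R the RARα midpoint was between 41 bp before and 19 bp after the midpoints of the MAML3 peaks, and at IRS2 it was 21 to 68 bp before them. The MAML3 midpoints of the 4 lists themselves fell within 60 bp of each other at IGF1R, 47 bp at IRS2 and 125 bp at IGFBP5. At IGFBP5 the peak of UT 1 was the displaced one. The MAML3 peaks of these 3 sites were 400 to 500 bp wide, and the RARα peaks 268 bp at IGF1R and 150 bp at IRS2.

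**Figure D4:**
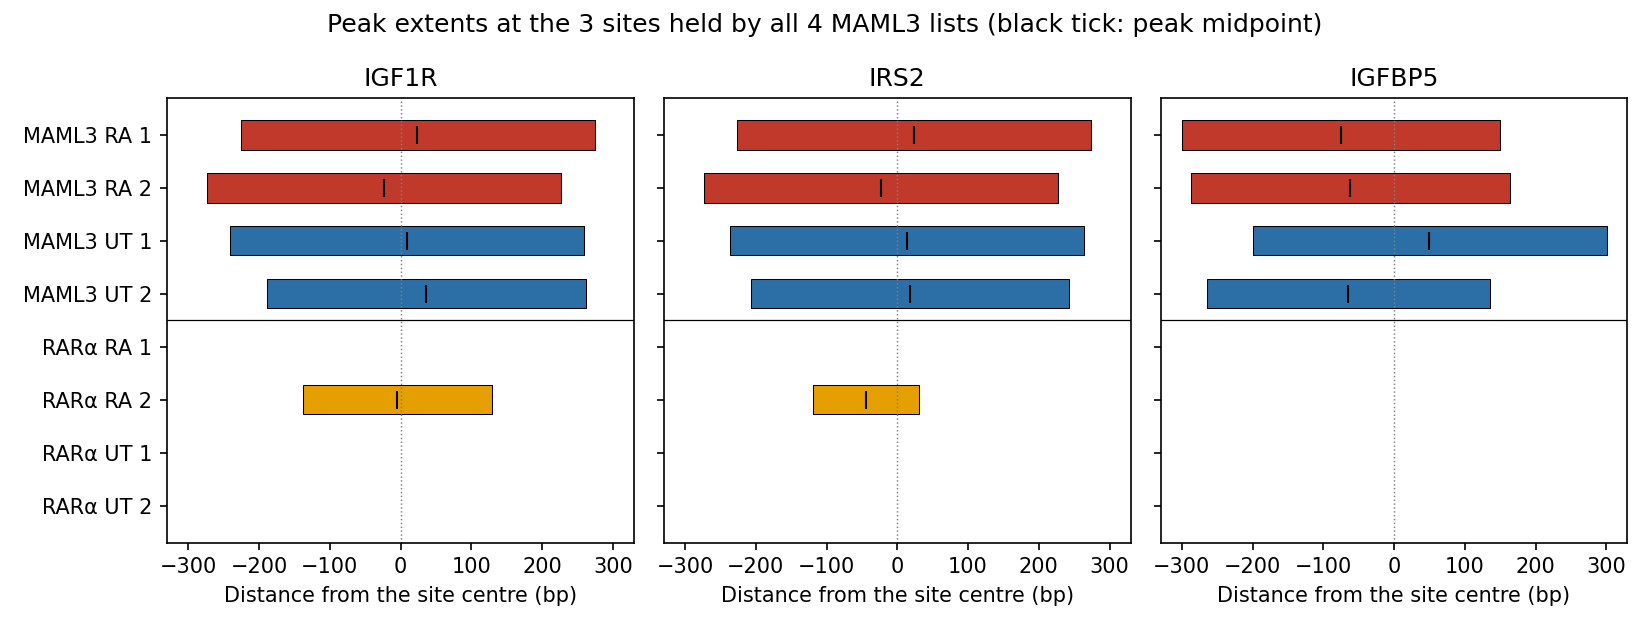
Extent of every peak at the 3 sites on all 4 MAML3 lists, as bars in bp from the site centre (x axis), with a black tick at each peak's midpoint and 1 row per list. The RARα RA 2 bars at IGF1R and IRS2 lie inside all 4 MAML3 bars, and no RARα bar stands at IGFBP5.

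Joint occupancy was counted over sites that both replicates held. With RA, 0 of the 5 MAML3 sites of both RA lists in the windows overlapped a RARα site of both RA lists, beside 9.14% of 4947 such sites over the genome. In untreated cells the count was 0 of 3, beside 5.45% of 1946. Taking any RARα list, 2 of the 3 MAML3 sites on all 4 lists carried a RARα peak, beside 55.7% of the 1724 sites of that kind in the genome. A peak in RARα RA 2 without one in RA 1 was present at the same 2 sites of 3, beside 13.2% over the 1724 sites. This class was not planned and repeats the pattern already seen at these sites, so the contrast is no sign of enrichment. Among those 1724 sites, RARα RA 1 marked 29.7%, RA 2 31.4%, UT 1 43.3% and UT 2 6.61%. None of the 7 other MAML3 sites in the windows carried a RARα peak. Over the genome, a peak of any RARα list was at 19.3% of MAML3 sites on 3 lists and 2.78% of those on 1 list. With so few sites, the count of 0 is not told apart from these shares.

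For the 4 empty loci, the numbers in the peak names were read, which run in order of position along each chromosome. If they count every called peak, which no label states, a missing number marks a called peak that the deposited list does not hold. Across the windows of IGF1 and IGF2R, the numbers of the flanking peaks followed each other with none missing in all 4 MAML3 lists. At IGF2 this held for the 2 MAML3 lists that had a peak on both sides, RA 2 and UT 2. At INSR it held for 3 lists, and in UT 1 there were 10 missing numbers over a stretch of 26297 kb that also covers the window. For RARα, 2 numbers were missing in UT 2 over a stretch of 62119 kb that covers IGF1. Another 1 was missing in RA 1 over 17432 kb that cover IGF2R, and none across INSR. No RARα list had a peak on both sides of the IGF2, IGF1R or IRS2 window. Across the windows that held peaks, 1 number each was missing in MAML3 RA 2 at IRS1, MAML3 RA 1 at IRS2 and RARα RA 2 at IGFBP5.

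Distances from the window edges differed among the empty loci. The nearest MAML3 site to the IGF2 window was 39.5 kb past its end, at 2214513 to 2214862 on chromosome 11, on RA 1, RA 2 and UT 2. It ranked at the 8.06 to 47.6 percentiles. Around INSR the nearest MAML3 site was 239 kb away and was listed in RA 2 alone, at the 2.95 percentile, and around IGF1 it was 486 kb away. Around IGF2R no MAML3 site was within 1119 kb of the window. Beside the loci that held peaks, a MAML3 site at 110307498 to 110307866, on RA 1 and UT 2, lay 2.13 kb before the IRS2 window. Past the end of the IRS1 window, 138 kb away, a MAML3 site at 227898182 to 227898718 was on RA 1, RA 2 and UT 2, at the 25.9 to 70.4 percentiles. RARα RA 1 alone listed a peak at 227900285 to 227900329, 140 kb from the window and at the 17.8 percentile. That peak did not overlap the MAML3 site. The IRS1 window itself held no site on more than 1 list.

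When every MAML3 list was shortened to its 2222 highest-scoring peaks, the sites at IGF1R, IRS2 and IGFBP5 that were on all 4 lists stayed in all 4. Those were all the peaks left in the windows in RA 1, RA 2 and UT 1, and UT 2 kept the second IGFBP5 site as well. With the RARα lists shortened to 251 peaks, no RARα peak was left in the windows.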

How the data were processed

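SK-N-SH cells were labelled with 10 samples: 8 immunoprecipitates, each with its own deposited peak list, and 2 inputs, which were not analysed here. Per the labels' protocols, libraries had 15 cycles of amplification and were sequenced on the Genome Analyzer. BWA 0.5.9, MACS, bedtools and the hg19 build are named in the submitters' processing notes, without settings. Each list gives positions and 1 number per peak, treated as a score that the authors deposited. The sources used here do not give the threshold, the use of inputs, or the list behind the filtering and intersection in the list names. In all 8 lists the lowest score lay between 70 and 70.13. By those names, both MAML3 UT lists have 1 library number and 1 index tag in common and may be 1 library on 2 lanes, and RARα UT 2 is tagged as merged. The sources used here do not give read depth, so list length was the measure of how much was called.

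Positions start at 1. A site is a run of peaks from an antibody's 4 lists that share at least 1 bp. Percentiles rank a score within its list. Treatment was compared over libraries with a two-sided exact permutation test. Site counts carry no p and stand beside the share over all sites. Merging was tested on simulated data. The loci, lists and rules were chosen with earlier results of these data known. Every gained, lost or 4-list site was to be named, with every RARα site on at least 2 lists and the top site of each window; all the other sites were then named too, after their values were seen. Other genes of the pathway were not counted, and no sequences are shown, since no hg19 annotation or genome was at hand. Alternatives were an overlap of 50% of the shorter peak, a distance of 1 kb, the upper 50% of each list by score, equal list lengths, windows 50 kb wider or narrower, sites on at least 1 list and each library left out. Only windows of at least 200 kb were narrowed, so those of IGF1 and IGF2 kept their length. Added after seeing the data were peak midpoints in place of overlap, and the MAML3 UT lists joined as 1. The count of MAML3 sites with a RARα peak in RA 2 and none in RA 1 was not planned either. Shared peaks of the joined list were merged for site counts but not for shares. Python 3.11.15, numpy 2.4.6, pandas 2.3.3, scipy 1.17.1 and matplotlib 3.10.9 were used.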

Additional observations from a re-analysis of the deposited data

How the results depend on the processing

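Of 115 alternative values of 10 results, 103 kept the direction of a difference, whatever its size, or stayed within 1.5 times a count. None of the 115 changed sign, but most are counts, which cannot be negative. Many of the 103 could hardly have moved. No RARα UT list had a peak in the windows. Counts of RARα sites lost, RARα sites on all lists and UT sites with both factors were therefore 0 throughout. Only wider windows could have changed these counts, so they are no sign of robustness. For the same reason, only wider windows could have made the RARα difference negative. The differences with replicate numbers as a block equal the main ones by construction. With single libraries left out, 0 to 3 MAML3 sites were gained, 0 to 2 lost and 3 to 5 on all remaining lists. RARα sites gained ranged from 0 to 2, and MAML3 sites of the RA lists with a RARα site from 0 to 2. The MAML3 difference in share of the list ranged from -0.0418 to -0.0103 percentage points and the RARα difference from 0 to 0.188. The MAML3 difference was -0.106 percentage points in the upper 50% of each list by score, and the RARα difference was 0.047 in windows narrower by 50 kb. With the MAML3 UT lists joined as 1 list, 2 sites were lost and 5 were on all lists. The RARα difference was 0 in the upper 50% of each list by score and in lists of equal length. With sites on at least 1 replicate, 2 MAML3 sites of the RA lists overlapped a RARα site. With replicate numbers as a block, the differences between RA and UT were -0.0261 percentage points for MAML3 and 0.094 for RARα, as without it, and no label says that a number pairs the samples. The exact sign-flip test over 2 pairs cannot give a p below 0.5. List length limits every count here, since a peak under the score minimum is not listed.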
